A study of Mus musculus with 3 samples.

Results

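The genes described are the 3 SoxF transcription factor genes (Sox7, Sox17 and Sox18) and 7 genes that mark the primitive endoderm and its basement membrane: the receptor gene Pdgfra, the adaptor gene Dab2, the collagen IV genes Col4a1 and Col4a2, and the laminin genes Lama1, Lamb1 and Lamc1. They were taken by name, with all 22 probe sets that the platform annotation pairs with these 10 genes alone, out of 45101 probe sets and 18193 genes. The study used 3 Affymetrix arrays to profile R1, a standard line of mouse embryonic stem (ES) cells, kept undifferentiated. The groups were R1 cells left untreated, R1 cells given BMP4 at 20 ng/ml for 4 h, and R1 cells given noggin at 100 ng/ml for 4 h, with 1 array each. BMP4 is a bone morphogenetic protein, and noggin is a secreted BMP antagonist that blocks receptor binding. No time is given for the untreated cells in the labels, and all groups are the same single cell line.

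SoxF factors bind DNA through an HMG box. Sox17 and Sox7 take part in forming the extraembryonic endoderm, and all 3 act in blood and lymphatic vessels. The primitive endoderm is the layer that separates from the pluripotent epiblast in the blastocyst. Its cells carry the PDGF receptor alpha and the endocytic adaptor Dab2, and they secrete a basement membrane built from type IV collagen and laminin. Laminin is a trimer of an alpha, a beta and a gamma chain, here encoded by Lama1, Lamb1 and Lamc1. The chains of Col4a1 and Col4a2 wind into a common triple helix, and these genes lie head to head on the chromosome.

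Regulatory sequence next to the start site was at hand for 5 of the 10 genes: Col4a1, Col4a2, Lamb1, Pdgfra and Dab2, the last with 2 windows (RefSeq, GRCm38.p6, 250 bases before to 50 after each start). The windows of Col4a1 and Col4a2 share 78 bases on opposite strands. The GC-rich motif GGCGCC, which equals its own reverse complement and which SMAD proteins, the transcription factors of the BMP pathway, are known to bind, occurred in the windows of 3 genes. It was present in 11.9% of the 32851 windows of all genes. The stretch that holds it is shown for each gene, 5′ to 3′ on the gene's strand, with the motif in capitals. For Lamb1, the laminin chain with a window, the 250 bases before the start are given whole.
Col4a1, chr8:11313001-11313030, minus strand: ctctgctccgtgGGCGCCggactctcggcc
Dab2, chr15:6386642-6386671, plus strand: ggaggcgcaggaGGCGCCggatctccgtgg
Lamb1, chr12:31265043-31265292, plus strand: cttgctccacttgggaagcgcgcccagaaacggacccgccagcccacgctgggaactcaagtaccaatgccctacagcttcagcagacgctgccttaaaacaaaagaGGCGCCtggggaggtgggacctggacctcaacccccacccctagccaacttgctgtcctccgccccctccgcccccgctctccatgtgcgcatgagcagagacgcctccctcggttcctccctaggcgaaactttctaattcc
The motif begins 192 bases before the start of Col4a1, 94 before that of Dab2 and 143 before that of Lamb1. On these arrays Dab2 had the same value in every condition, and Col4a1 and Lamb1 differed by at most 0.13 and 0.08 by the probe set that represents each. Other motifs were searched on both strands in the same windows. The SMAD box CAGACA was found once, in the second Dab2 window (21% of all windows), and the GATA motif AGATAA once, in the first Dab2 window (11.2%). The SOX motifs AACAAT and ACAAAG were found in no member window, against 10.7% and 18.7% of all windows.

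Values are log2 RMA values, so a difference of 1 is a 2-fold difference. With 1 array per condition no value has a replicate error, no test between conditions was possible, and every difference describes these arrays only; the number of arrays limits the precision. A gene is represented by its probe set with the highest mean and was kept when that probe set exceeded 3.44, the median over the whole table and called the floor here, on at least 1 array. This left 11594 genes, among them all 10 members, although Sox18 passed on the BMP4 array alone. Probe sets of the same gene differed from each other with an SD of 0.13 in the difference BMP4 minus untreated, 0.11 in noggin minus untreated and 0.16 in BMP4 minus noggin, which gives a scale for the probe-level scatter. Id1, Id2 and Id3, direct targets of BMP signalling, were higher with BMP4 by 2.76, 4.10 and 3.58, Smad6 by 0.67 and Smad7 by 0.34. All 12 markers of undifferentiated ES cells were above the floor on every array. Of 11 primitive endoderm transcription factors on the array, 8 were above it untreated, 9 with BMP4 and 8 with noggin. On at least 1 array 9 of the 11 were above it, as were 63.7% of all genes. Being above the floor is thus common and does not set the factors apart. Untreated, the highest were Sall4 at 10.78, Otx2 at 5.98 and Gata6 at 4.67. Gata4 and Foxa2 were above the floor on no array. The 24 probe sets of poly-A spikes, added to the RNA before labelling, had a median of −0.63 for BMP4 minus untreated and −0.18 for noggin minus untreated, and the 18 of hybridisation spikes 0.01 and −0.0058.

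**Figure D1:**
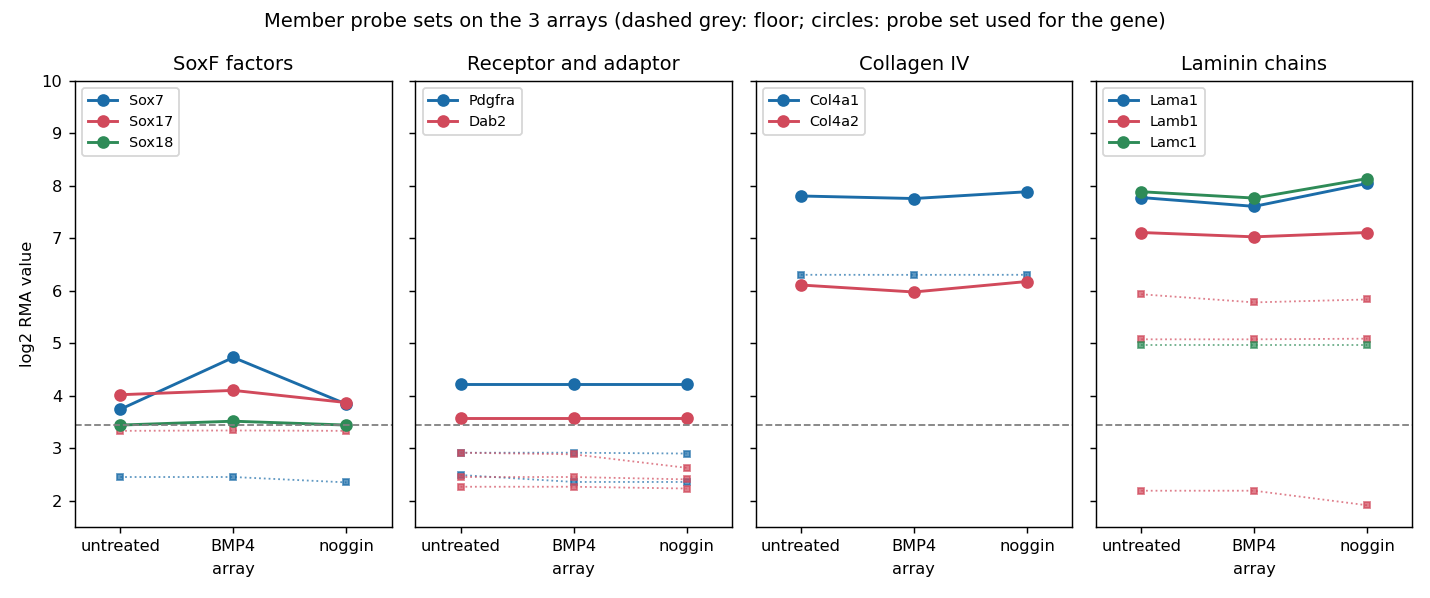
Log2 RMA values (vertical axis) of all 22 member probe sets on the untreated, BMP4 and noggin arrays (horizontal axis), in 4 panels by role. Circles with solid lines are the probe set used for each gene, small squares with dotted lines are the others, and the dashed line is the floor of 3.44; Sox7 stands out at 4.73 with BMP4, and Lama1 and Lamc1 are highest with noggin.

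Sox7 was the member that differed most between conditions. It measured 3.74 untreated, 4.73 with BMP4 and 3.84 with noggin. The BMP4 value stood apart from the other two, which lay within 0.10 of each other. The difference of 0.99 from the untreated array is 1.98-fold, just under the 2-fold limit. Only 13 of the 11594 kept genes, Sox7 among them, were as much higher with BMP4. Against the noggin array Sox7 was 1.85-fold higher with BMP4, with 19 genes at least as far. The other probe set of Sox7 was below the floor on all arrays, at 2.45, 2.45 and 2.35, and was exactly equal on the untreated and BMP4 arrays. When both probe sets are averaged, the difference is 0.49 for BMP4 minus untreated and 0.50 for BMP4 minus noggin. In bulk RNA, a change in the number of cells that carry a transcript and a change in its amount per cell cannot be told apart.

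Sox17 and Sox18 differed far less. Sox17, a factor needed for definitive and extraembryonic endoderm, measured 4.02 untreated, 4.10 with BMP4 and 3.87 with noggin. The BMP4 value was highest and the noggin value lowest, with a difference between these of 0.23, or 1.17-fold. A total of 511 kept genes (4.41%) were at least as much higher with BMP4 than with noggin. The other Sox17 probe set was below the floor and lay between 3.33 and 3.34 on all arrays. Sox18, a vascular and hair follicle factor, has 1 probe set, which measured 3.44 untreated, 3.51 with BMP4 and 3.44 with noggin. Its untreated and noggin values were equal to each other and to the floor, so its level is not separated from the background of the array.

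Sox7 and Sox17, the SoxF genes above the floor on every array, were both higher with BMP4 than without treatment, and Sox7 was past 1.5-fold. Of all kept genes, 24.8% were higher with BMP4 than without treatment and 0.224% were at least 1.5-fold higher. At a level like that of Sox7, among the 2942 kept genes with a mean value below 5, 7 genes or 0.238% were at least 1.5-fold higher. Of 11 kept genes of other Sox families, 1 was higher with BMP4 and 3 were lower. The lowest of these differences was −0.17, for Sox4, and the gene that was higher was Sox14, by 0.06. Sox2, the pluripotency factor of the family, measured 11.16 on both arrays.

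Genes near Sox7 were sought by their pair of differences from the untreated array. Clone and model names were left out, as were genes with any probe set above the floor that was lower with BMP4. The 5 nearest of the rest, over 3 arrays, were Mpst, Ccn2, Atp8a1, Dusp5 and Bbx. Their distance, the Euclidean distance of the pair (BMP4 minus untreated, noggin minus untreated), ran from 0.023 for Mpst to 0.16 for Bbx. Mpst, a mercaptopyruvate sulfurtransferase gene, measured 4.21 untreated, 5.18 with BMP4 and 4.30 with noggin. Ccn2, which encodes a secreted matrix-associated growth factor, was higher with BMP4 by 1.09 and with noggin by 0.13. Dusp5, a nuclear phosphatase of ERK, was higher by 1.11 and 0.12. For Atp8a1 and Bbx, 5 probe sets each were above the floor, and the BMP4 difference among them began at 0.00. No lower value was possible under this selection.

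Among transcription factors of the primitive endoderm, 9 of the 12 in the list were kept. With BMP4, 4 were higher, 3 lower and 2 equal, with a median of 0.00, as over all kept genes. Over all kept genes 24.8% were higher, 35.6% lower and 39.6% equal. Gata6, a zinc finger factor that specifies the primitive endoderm, was furthest, at 4.67 untreated, 5.20 with BMP4 and 4.82 with noggin. Its second probe set gave 4.33, 5.23 and 4.77. Both probe sets were lowest without treatment and highest with BMP4, with differences of 0.52 and 0.90. Mixl1, a homeobox factor of mesendoderm, was higher with BMP4 by 0.23 but was above the floor on that array alone. Hnf4a, a nuclear receptor of visceral endoderm, was higher by 0.13 with BMP4 and lower by 0.25 with noggin, while its other probe set measured 3.93 on all arrays.

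Pdgfra and Dab2 showed no difference on these arrays. The Pdgfra probe set measured 4.23 on all 3 arrays, and that of Dab2 3.58 on all 3, equal to 6 decimals. Exactly equal values are frequent here, at 26.1% of all probe sets, and median polish can return them, so a small true difference can appear as 0. The other 2 probe sets of Pdgfra and 3 of Dab2 were below the floor on every array. Among these the largest difference was −0.29, for Dab2 with noggin. The ligand gene Pdgfa measured 7.21 untreated, 7.12 with BMP4 and 7.07 with noggin, lower on both treated arrays. The ligand gene Pdgfc measured 6.09 untreated, 5.52 with BMP4 and 5.96 with noggin. The second probe set of Pdgfc also had its lowest value with BMP4, at 5.41 against 5.63 untreated and 5.60 with noggin. Of 9 kept genes for endocytic receptors and adaptors that work with Dab2, 2 were higher with BMP4 and 2 lower. Over all kept genes 24.8% were higher and 35.6% lower, so this count does not set the list apart. The visceral endoderm receptor subunit gene Amn, with a difference of 0.25, and the motor gene Myo6, with −0.23, were furthest.

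**Figure D2:**
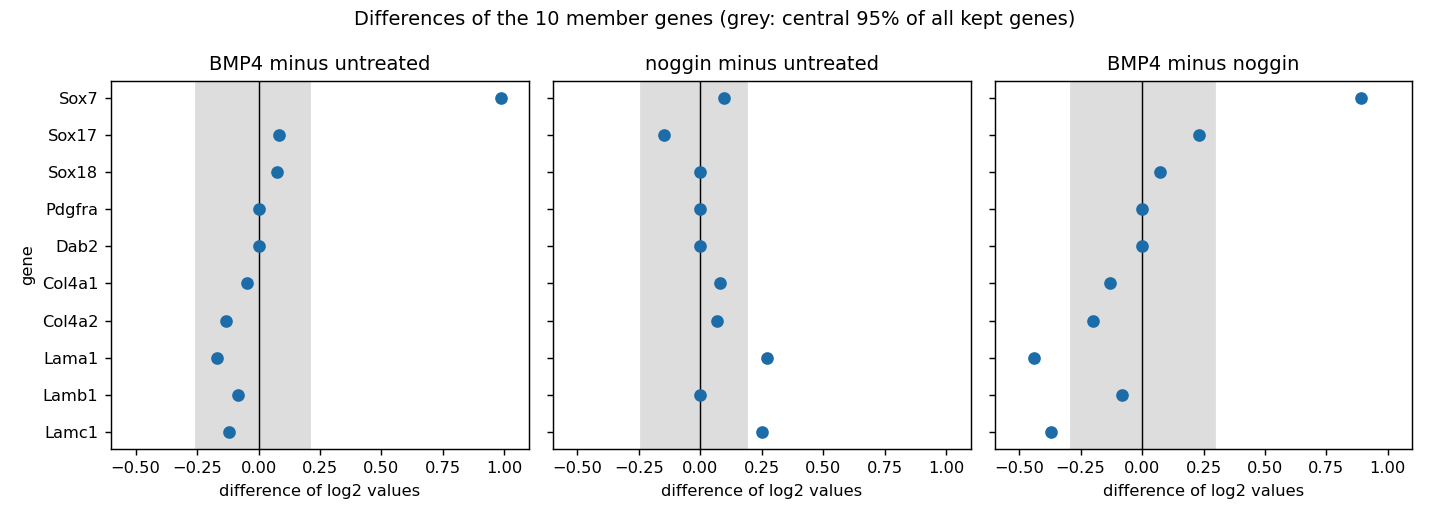
Differences of log2 values (horizontal axis) of the 10 genes (vertical axis) for BMP4 minus untreated, noggin minus untreated and BMP4 minus noggin. Grey bands are the central 95% of all 11594 kept genes; Sox7 lies outside the band in both comparisons with the BMP4 array, and Lama1 and Lamc1 outside it in both comparisons with the noggin array.

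The collagen IV and laminin genes had small differences. All 5 were lower with BMP4 than without treatment, by 0.05 to 0.17, with a median of −0.12. Over all kept genes 35.6% were lower and the median was 0.00. No member was at least 1.5-fold lower (0.0518% of kept genes). With noggin, 4 of the 5 were higher than without treatment and Lamb1 was equal, with a median of 0.08; 26.8% of kept genes were higher. These comparisons share the untreated array, so their signs are not independent.

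Lama1, the alpha chain of the laminin of the early embryo, measured 7.78 untreated, 7.61 with BMP4 and 8.05 with noggin. The noggin value was highest and the BMP4 value lowest. Lama1 was 1.21-fold higher with noggin than without it, and 92 kept genes (0.794%) were at least as much higher. Between the treated arrays, BMP4 minus noggin, the difference was −0.44, or 1.36-fold, with 66 genes (0.569%) at least as much lower. Lama1 has a single probe set, so no second measurement exists on these arrays.

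Lamc1, the gamma chain, measured 7.89 untreated, 7.77 with BMP4 and 8.14 with noggin, the same order as Lama1. Noggin minus untreated was 0.25, while BMP4 minus noggin was −0.37, with 121 and 125 kept genes at least as far in the same direction. Its second probe set, at 4.96 on all 3 arrays, gave no difference. When both probe sets are averaged, the noggin difference is 0.13 and BMP4 minus noggin −0.19.

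Lamb1, the beta chain, measured 7.11 untreated, 7.03 with BMP4 and 7.11 with noggin. The untreated and noggin values were equal. A second probe set gave 5.93, 5.78 and 5.83, another 5.07, 5.07 and 5.09, and the last was below the floor. The noggin difference was thus 0.00, −0.10 or 0.01 by probe set above the floor. For BMP4 minus noggin the same probe sets gave −0.08, −0.06 and −0.01. Averaging all 4 gives 0.03, because the probe set below the floor had 0.28. The noggin values that set Lama1 and Lamc1 apart were not shared by the beta chain; the difference between the chains was not tested.

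Col4a1 measured 7.81 untreated, 7.76 with BMP4 and 7.89 with noggin. Its second probe set lay at 6.31, 6.30 and 6.31, with no difference above 0.0012 in size. Col4a2 measured 6.11 untreated, 5.98 with BMP4 and 6.18 with noggin. Both genes had the lowest value with BMP4 and the highest with noggin. The size of the BMP4 minus noggin difference was 0.13 for Col4a1 and 0.20 for Col4a2, and 11.4% and 5.99% of kept genes were at least as much lower.

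Over all 10 genes, BMP4 minus untreated had 3 higher, 5 lower and 2 equal, with a median of −0.024. Of all kept genes 24.8% were higher, 35.6% lower and 39.6% equal. Sox18 is 1 of the 3 higher, here and for BMP4 minus noggin, and was kept through its BMP4 value alone. Noggin minus untreated had 5 higher, 1 lower and 4 equal, with a median of 0.034. Of all kept genes 26.8% were higher, 36.1% lower and 37% equal. For BMP4 minus noggin, 3 were higher, 5 lower and 2 equal, with a median of −0.041; over all kept genes 33.1% were higher, 34.1% lower and 32.9% equal. No member reached 2-fold in any comparison, whereas 0.104% of kept genes did with BMP4 against untreated, 0% with noggin against untreated and 0.121% with BMP4 against noggin. Past 1.5-fold there was Sox7 alone, with BMP4 against untreated and against noggin, where 0.276% and 0.518% of kept genes were past that limit. For noggin minus untreated no member and 0.0776% of kept genes were past it.

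Other genes of the basement membrane were set beside the members from a list of their parts. Of 12 further components, 9 were kept, and 7 were lower with BMP4 and 2 higher, with a median of −0.064. Of all kept genes, 35.6% were lower and 24.8% higher. With noggin 7 were higher, 1 lower and 1 equal, with a median of 0.035, and 26.8% of all kept genes were higher. Between the treated arrays 8 of the 9 were lower with BMP4 and none higher by the probe set that represents each. The median was −0.10, against 0.00 over all kept genes, of which 34.1% were lower and 33.1% higher. Among further probe sets above the floor, a Sparc probe set (0.079) and that of Nid1 (0.006) were higher. Those of Col18a1, Fn1 and Hspg2 and another of Sparc were lower. Fn1, the gene of fibronectin, which cells bind through integrins, measured 9.48 untreated, 9.32 with BMP4 and 9.76 with noggin. Its second probe set gave 6.37, 6.04 and 6.29, so BMP4 was lowest by both and noggin highest by the first alone. Nid1, which encodes a linker of laminin and collagen IV, measured 7.76, 7.67 and 7.82, and its second probe set was within 0.01 on all arrays. Col18a1, the source of endostatin, was lower with BMP4 by 0.22 and with noggin by 0.03.

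Of the other collagen IV and laminin chains, 11 of 12 were on the array and 4 were kept, none of them a collagen. Lama3 and Lama5 differed and Lama2 and Lamb2 were equal on all arrays. Lama3, an alpha chain of epithelial basement membranes, measured 6.15 untreated, 6.03 with BMP4 and 6.46 with noggin. Lama5, the broadly used alpha chain, measured 6.69, 6.66 and 6.87. Both were highest with noggin, and the second probe set of Lama5 was also higher with noggin, by 0.27. The alpha chain genes Lama1, Lama3 and Lama5 were higher with noggin by 0.27, 0.31 and 0.18, none of them 1.5-fold; 0.00863% of all kept genes were at least 1.5-fold higher.

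Enzymes and chaperones that fold and crosslink collagen IV went both ways with BMP4, with 3 of 11 kept genes higher, 3 lower and 5 equal. The shares over all kept genes were 24.8%, 35.6% and 39.6%. With noggin 7 were higher and 2 lower, against 26.8% and 36.1% of all kept genes. Pxdn (peroxidasin, which crosslinks collagen IV) measured 5.20 untreated, 5.03 with BMP4 and 5.28 with noggin. P4ha2, a prolyl hydroxylase subunit, ran the other way, at 6.68, 6.90 and 6.52. The list's median for BMP4 minus noggin was −0.033.

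Markers of other cells were read on the same arrays. Of 13 fibroblast markers, 7 were kept, and between the treated arrays 6 were lower with BMP4 and none higher, with a median of −0.17. Of all kept genes, 34.1% were lower and 33.1% higher in this comparison. Postn, with the largest of these differences, was kept through its noggin value alone; without it, an alternative chosen after seeing the data, 5 of 6 were lower, with a median of −0.16. The summed log2 value of all 13 markers was 47.3 untreated, 45.6 with BMP4 and 47.5 with noggin. This sum includes the markers that were not kept, so values at background level enter it. Col1a1 and Col3a1 were not above the floor on any array. Fbln2, a matrix gene, measured 4.49, 4.12 and 4.56, and S100a4 4.93, 4.37 and 4.62. The fibroblast list and the basement membrane genes were both lower on the BMP4 than on the noggin array, and the part of fibroblasts in the result was not tested. The poly-A spikes had a median BMP4 minus noggin difference of −0.46, and their part was not tested. Of 10 markers of the parietal endoderm, which lays down a thick basement membrane, 5 were kept, with a median of 0.00 for BMP4 minus untreated. Of these Sparc, a matrix protein gene, was lower with BMP4 by 0.08 by its first probe set and higher by 0.08 by its second, and Snai1, a repressor of epithelial genes, was higher by 0.57. Of 12 visceral endoderm markers, 8 were kept, with 2 higher with BMP4 (Amn and Hnf4a), 1 lower and 5 equal. The shares over all kept genes were 24.8% higher, 35.6% lower and 39.6% equal, so this count does not set the markers apart.

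**Figure D3:**
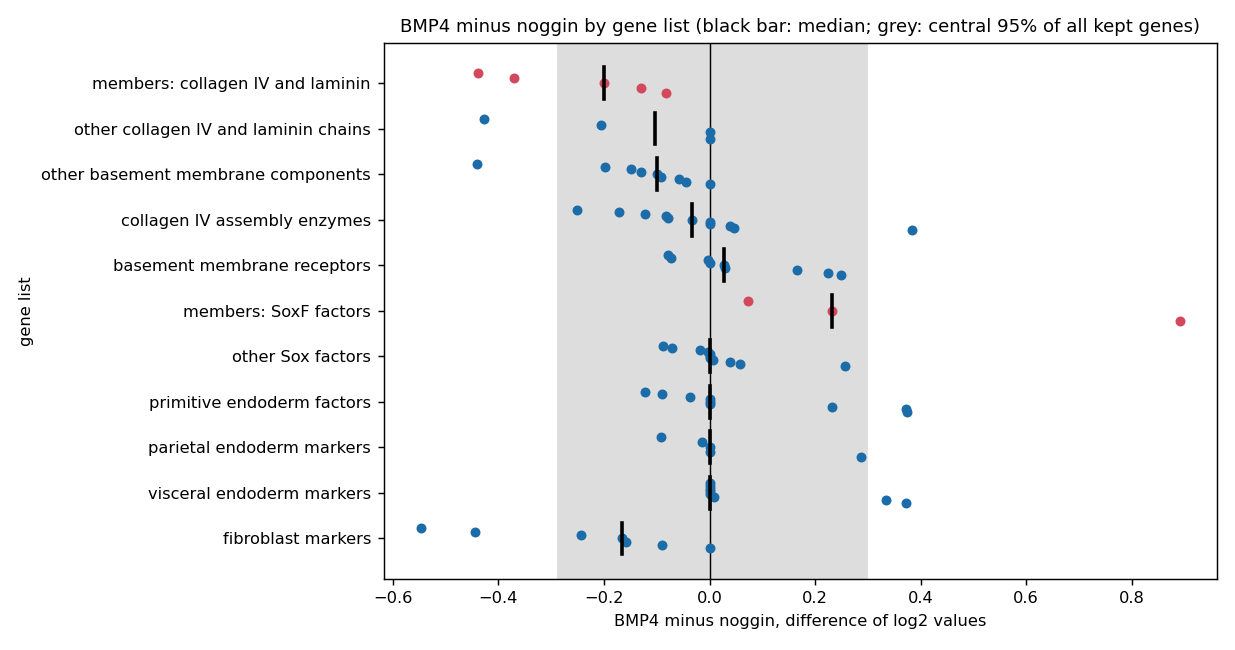
BMP4 minus noggin differences of log2 values (horizontal axis) of the kept genes of each list (vertical axis), 1 point per gene, members in red. Black bars are list medians and the grey band is the central 95% of all kept genes; the collagen IV and laminin members have a median of −0.20, the other basement membrane components −0.10 and fibroblast markers −0.17.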

How the data were processed

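The authors deposited 1 table of log2 RMA values per probe set for 3 arrays, per the labels and the submitters' processing notes. RMA corrects background, quantile-normalizes the arrays and summarises probes by median polish; its version and settings are not given in the sources used here. A change in total RNA per cell would be hidden by quantile normalization. Gene names came from the platform annotation: 34945 had 1 symbol, 932 several, 9160 none and 64 were controls. All 10 member identifiers matched RefSeq genes. Values were used as deposited. A gene took its probe set with the highest mean, and the floor was 3.44. Differences were described by size, with limits of 2-fold and 1.5-fold; values equal to 6 decimals count as equal. Named genes are all members, the BMP response genes, the 5 most like Sox7, and the list members with the largest differences. Other values named, including second probe sets, were chosen after their values were seen. Members and lists were chosen with earlier results of these data known. The computation was tested by adding set differences to 200 genes on a copy of the untreated values, and 200 of 200 were recovered. No noise was added, so this checks the arithmetic alone. Alternatives were other probe set rules, other floors, median-centred and loess-corrected differences (span 0.3) and the 1.5-fold limit. Python 3.11.15, pandas 2.3.3, numpy 2.4.6, statsmodels 0.14.6 and matplotlib 3.10.9 were used.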

Additional observations from a re-analysis of the deposited data

How the results depend on the processing

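No paired analysis was possible because each condition has 1 array, and none could be left out. With a 1.5-fold limit, 1 member was past it for BMP4 minus untreated and 1 for BMP4 minus noggin, against 0 at 2-fold. The number of members lower with noggin was 1; it was 3 of 8 with a gene's probe sets averaged and 0 of 5 with the floor at the 75th percentile, where fewer members are kept. The number lower for BMP4 minus noggin was 5, and it was 4 of 8 with averaged probe sets and 7 of 10 with loess correction. The members added by loess correction were Pdgfra, at −0.00061, and Dab2, at −0.0069. Both were exactly equal on the arrays, and subtracting the fit put them below 0. The counts past 2-fold stayed at 0 under each of the other 6 settings. With the floor at the 75th percentile, which keeps the 5 collagen IV and laminin genes alone, the median went from −0.024 to −0.12 for BMP4 minus untreated, from 0.034 to 0.081 for noggin minus untreated and from −0.041 to −0.20 for BMP4 minus noggin. Of 153 differences of single members under these settings, 149 moved by less than the within-gene SD and 4 by more, those of Sox7 and Lamc1 with averaged probe sets. Many of the 149 could not move. Another floor leaves a member's value as it was, and so does median-centring, because the median over all kept genes was 0. The count of 149 is therefore no measure of stability.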

Other observations

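SoxF factors also act in vessels, and 8 of 12 endothelial markers were kept. With BMP4 3 were higher, 3 lower and 2 equal, against 24.8%, 35.6% and 39.6% of all kept genes. Etv2, a factor that starts the endothelial programme, was furthest, at 5.55 untreated, 5.26 with BMP4 and 5.48 with noggin, while Eng, a BMP co-receptor of endothelium, was higher with noggin by 0.21. Cdh5 and Tie1 were not above the floor on any array. Of 9 kept genes for receptors of the basement membrane, 5 were higher with BMP4 than with noggin and 3 lower, with a median of 0.027. Itgb1, the integrin beta subunit shared by laminin and collagen receptors, measured 8.03 untreated, 8.15 with BMP4 and 7.98 with noggin, and Bcam, a laminin receptor, was higher with BMP4 by 0.22.

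Many values in the table recur exactly among unrelated probe sets. On the untreated array 71.6% of all probe sets shared their value, to 6 decimals, with at least 1 other, and 17 of the 22 member probe sets did. Above the floor the share was 62%, and at or below it 81.3%. The untreated value of Sox17 was held by 152 other probe sets and that of Sox18 by 120, whereas those of Sox7 and Lama1 were held by none. On the BMP4 array the value of Sox7 was again unique, and on the noggin array it was shared with 155 others.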
